A study of Homo sapiens with 6 samples.

Results

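The HOX cluster neighbourhoods are 4 windows of 1 Mb, in T2T-CHM13 coordinates: chromosome 7 from 26.8 to 27.8 Mb (HOXA), chromosome 17 from 49.0 to 50 Mb (HOXB), chromosome 12 from 53.5 to 54.5 Mb (HOXC) and chromosome 2 from 176.1 to 177.1 Mb (HOXD). Their members are the nascent-strand peaks that start inside them, chosen by position. They number 2215 of the 945863 peaks in the 4 sample lists. The 3 Mb on each side of each window, 24 Mb in all, hold 12320 peaks and serve as flanks for comparison.

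Nascent-strand sequencing (NS-seq) reads short, newly made DNA, which is enriched where replication starts, so a peak marks DNA near an active origin. The study asked how origin activity differs in U2OS, a human osteosarcoma cell line, when ORCA is targeted by siRNA. The control samples were U2OS cells given the control siRNA gl3, and the siORCA samples were U2OS cells given an siRNA against ORCA, with 2 samples per group. Whether the samples of a group were separate cultures is not stated in the labels, and each p-value therefore covers only sample-to-sample spread, part or all of which may be technical. ORCA's own level could not be checked in an assay of DNA, and 2 genomic DNA samples were not analysed here.

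HOX genes encode homeodomain transcription factors that give cells their position along the body axis, and within a cluster their order on the chromosome follows the order in which they are expressed in the embryo. The clusters are classic targets of Polycomb repression, in which long stretches of chromatin carry methylated histone H3 lysine 27 where the genes are silent. Replication origins are licensed when the origin recognition complex helps to load the MCM helicase onto DNA, and ORCA, the product of LRWD1, associates with this complex and stabilises its binding to chromatin. Origins tend to be dense in open, gene-rich DNA and sparse in gene-poor DNA.

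A T2T-CHM13 gene annotation was not used here, so no peak is assigned to a gene, exon or promoter, and which positions inside a window belong to the HOX genes themselves was not determined from these files. The order of neighbouring genes was taken from RefSeq on GRCh38.p14, without its coordinates. There the 4 clusters held 39 HOX genes. The 11 HOXA genes lay between SKAP2, which encodes an adaptor protein of immune cell signalling, and EVX1, a further homeobox gene. The 10 HOXB genes lay between SKAP1, a related adaptor, and TTLL6, a tubulin-modifying enzyme, with PRAC1 and PRAC2 among them. The 9 HOXC genes lay between CALCOCO1 and SMUG1, a DNA repair glycosylase, and CBX5, which encodes the heterochromatin protein HP1 alpha, came next. The 9 HOXD genes lay between EVX2, a homeobox gene, and MTX2, which encodes a mitochondrial outer membrane protein.

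The lists differed in length, and the HOX values have to be read beside that. The control lists held 181215 and 235865 peaks over 58.5 and 67.1 Mb, and the siORCA lists held 330265 and 198518 peaks over 86.2 and 64.0 Mb. Over the genome this came to 2.96, 3.85, 5.40 and 3.25 peaks per 50 kb in control 1, control 2, siORCA 1 and siORCA 2. The lists hold no read counts, so depth is unknown, and depth and origin activity cannot be told apart as sources of list length. Values per sample are given below in the order control 1, control 2, siORCA 1, siORCA 2.

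The HOX windows together held 418, 537, 747 and 513 peaks, or 5.23, 6.71, 9.34 and 6.41 peaks per 50 kb. Covered length, the sum of the lengths of these peaks, was 1975, 2017, 2661 and 2483 bp per 50 kb, against 956, 1096, 1408 and 1048 bp per 50 kb over the genome. In every sample the sum of the 4 windows was covered more densely than the genome, but HOXD by itself was below the genome in all 4 samples. They took 0.270, 0.241, 0.247 and 0.310% of the covered length of each list. Median peak width was 262.5, 200, 181 and 263 bp. Widths were lower in control 2 and siORCA 1, the longer 2 lists, than in the other two. Peaks of at least 1 kb numbered 24, 11, 17 and 33.

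The 4 windows were unlike each other. HOXC was the most densely covered, HOXB the next, then HOXA and HOXD. HOXC held 187, 227, 301 and 207 peaks and 85041, 78248, 98853 and 97888 covered bp, or 4252, 3912, 4943 and 4894 bp per 50 kb. HOXB held 105, 145, 209 and 150 peaks and 36028, 40766, 58309 and 50242 bp, or 1801, 2038, 2915 and 2512 bp per 50 kb. No value of HOXC overlapped a value of HOXB.

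HOXA held 70, 97, 142 and 115 peaks and 20382, 26548, 34755 and 37062 bp, or 1019, 1327, 1738 and 1853 bp per 50 kb. HOXD held 56, 68, 95 and 41 peaks and 16522, 15826, 20926 and 13458 bp, or 826, 791, 1046 and 673 bp per 50 kb. The ranges of neighbours in this order touched across samples: HOXA's highest value lay above HOXB's lowest, and HOXD's highest above HOXA's lowest. Within each of the 4 samples, though, the order was HOXC, HOXB, HOXA, HOXD.

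Among 3044 windows of 1 Mb across the genome, 97.1% had a lower mean covered length than HOXC, 85.3% a lower one than HOXB, 75.7% a lower one than HOXA and 59.2% a lower one than HOXD. Median peak width followed no single order. It was 333, 227, 215 and 365 bp in HOXC, 240, 197, 176 and 233.5 bp in HOXB, 222, 172, 176.5 and 216 bp in HOXA and 192, 173.5, 140 and 227 bp in HOXD. HOXC peaks were the widest in 4 of 4 samples by this measure.

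Set against the 3 Mb on each side, HOXC, HOXD and HOXA were more densely covered than their flanks in all 4 samples, and HOXB was less densely covered. The ratio of covered length per Mb, window over flanks, was 1.41, 1.42, 1.25 and 1.44 for HOXC, a mean log2 of 0.46 ± 0.09 (SD, n = 4). For HOXD it was 1.51, 1.23, 1.38 and 1.38, a mean log2 of 0.46 ± 0.12 (SD, n = 4). For HOXA it was 1.10, 1.19, 1.17 and 1.30, a mean log2 of 0.25 ± 0.10 (SD, n = 4).

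HOXB lay on the other side of its flanks, with ratios of 0.648, 0.736, 0.761 and 0.678 and a mean log2 of -0.51 ± 0.11 (SD, n = 4). Taken over all 4 windows, the mean log2 ratio was 0.12 ± 0.03 (SD, n = 4), above 0 in 4 of 4 samples. In each window and in the sum, a two-sided exact sign-flip permutation test over the 4 samples gave p = 0.125, the smallest that 4 samples allow, and 0.125 after Benjamini-Hochberg adjustment over the 4 windows. A window above its own flanks in all 4 samples was common: 36% of 2311 windows of the genome were, and 40.5% were below in all 4. The share of windows with a lower mean ratio was 76.2% for HOXC, 75.9% for HOXD, 65.1% for HOXA and 27.7% for HOXB.

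**Figure D1:**
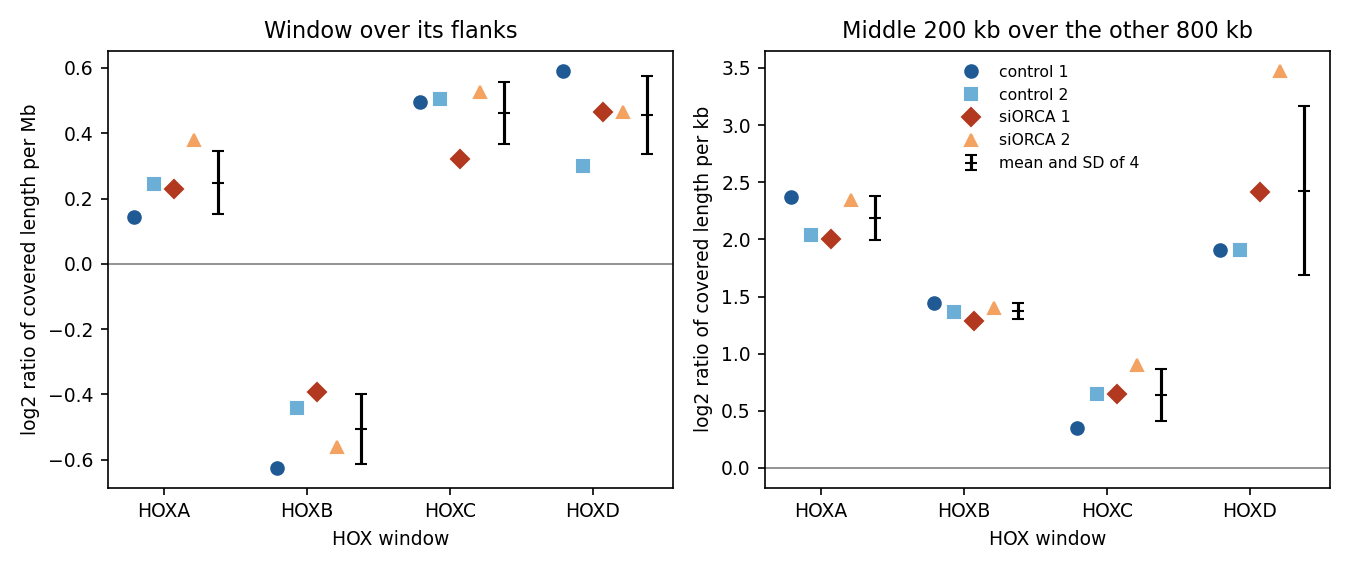
Left, log2 of covered length per Mb in each HOX window over its 3 Mb flanks; right, log2 of covered length per kb in the middle 200 kb over the other 800 kb. Points are the 4 samples and bars the mean and SD of 4: HOXB alone lies below 0 on the left (-0.51 ± 0.11), and every point on the right lie above 0.

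Peak number gave ratios to the flanks that were closer to 0 than those of covered length, and the difference in peak width overlapped 0. The mean log2 ratio of peak number to the flanks was 0.36 for HOXC, 0.25 for HOXD, 0.09 for HOXA and -0.27 for HOXB. HOXD was above its flanks by this measure in 3 of 4 samples, with siORCA 2 at -0.01 (exact sign-flip permutation p = 0.25). Median width in the windows minus that in the flanks was 9.38 ± 17.4 bp (SD, n = 4), above 0 in 2 of 4 samples (exact sign-flip permutation p = 0.5). In HOXB the peaks were narrower than those of its flanks in 4 of 4 samples, by -26.6 ± 14.5 bp (SD, n = 4, exact sign-flip permutation p = 0.125).

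Where the flanks were covered differed from window to window. Of the 7 Mb around HOXA, the HOX window ranked 1 by mean covered length, at 29.7 kb, level with 29.7 kb in the Mb just before it. That Mb was above the window in control 1, control 2 and siORCA 1, and below it in siORCA 2 (35.3 against 37.1 kb). Of the 7 Mb around HOXD the HOX window ranked 2, at 16.7 kb, after 17.3 kb in the Mb that starts at 174.1 Mb. The HOXC window, at 90.0 kb, ranked 3 of 7, with 93.2 and 95.1 kb in the 2 Mb before it and 23.4 kb in the Mb after it. HOXB ranked 5 of 7, at 46.3 kb, next to a stretch of 98.1 and 99.1 kb in the 2 Mb after it.

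The ratio to the flanks thus depended on which neighbours were taken in. With flanks of 1 Mb on each side instead of 3 Mb, the mean log2 ratio was 0.09 for HOXA, -0.82 for HOXB, 0.62 for HOXC and 0.35 for HOXD, and 0.01 over all 4 windows.

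**Figure D2:**
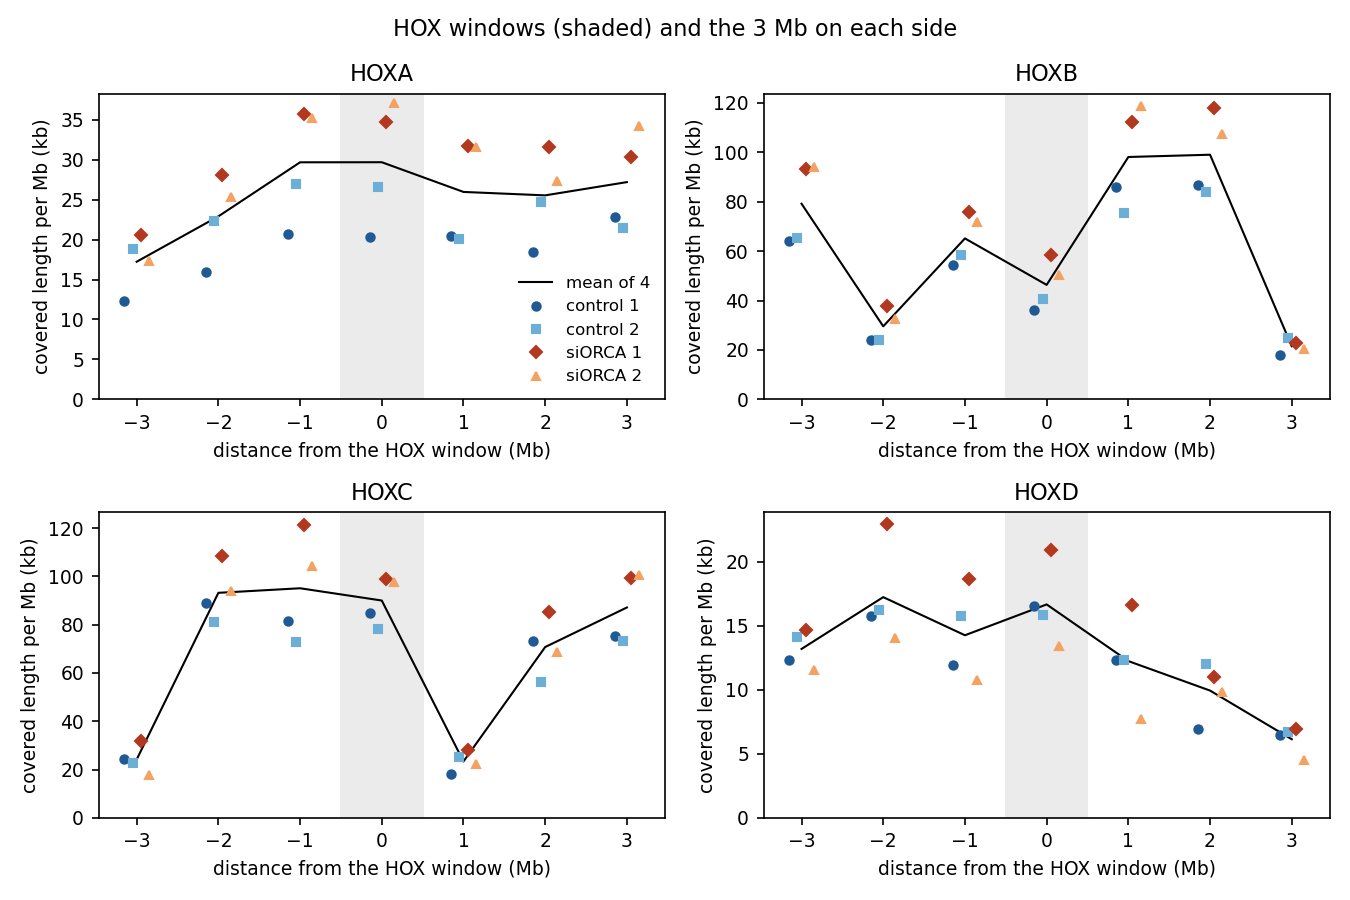
Covered length per Mb (kb) in each HOX window (shaded, at 0) and in the 3 Mb on each side; the line is the mean of the 4 samples and the points are the samples. HOXA at a mean of 29.7 kb is level with the Mb before it, which is the higher in control 1, control 2 and siORCA 1. HOXB at 46.3 kb sits beside 98.1 and 99.1 kb in the 2 Mb after it.

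Inside the windows the peaks were gathered towards the middle, most in HOXD and HOXA. This measure, the middle 200 kb against the other 800 kb, was added after the values had been seen. The middle held 56.4, 50.7, 50.1 and 55.9% of HOXA's covered length, 40.5, 39.2, 37.8 and 39.7% of HOXB's, 24.2, 28.1, 28.1 and 31.9% of HOXC's, and 48.4, 48.5, 57.2 and 73.6% of HOXD's. As a log2 ratio of covered length per kb, middle over the rest, the means were 2.43 ± 0.74 for HOXD, 2.19 ± 0.19 for HOXA, 1.37 ± 0.07 for HOXB and 0.64 ± 0.23 for HOXC (SD, n = 4 each). All 4 samples were above 0 in each window, which also held for 24.1% of 2439 windows of the genome.

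By the mean ratio of middle to rest, 99.9% of those windows lay below HOXD (6.0-fold), 99.8% below HOXA (4.59-fold), 98.0% below HOXB (2.59-fold) and 84.6% below HOXC (1.57-fold). The windows were laid around the clusters, whereas a genome window has its dense part anywhere. With the densest 200 kb of each window in place of the middle, HOXA (27.2 to 27.4 Mb) held 53.1% of its covered length there and HOXD (176.55 to 176.75 Mb) 56.5%, and 96.4% and 97.4% of 2442 windows had a lower share. HOXB (49.4 to 49.6 Mb) held 39.2% and HOXC (53.95 to 54.15 Mb) 33.4%, with 76.1% and 50.2% of windows lower. The median window held 33.4% in its densest 200 kb, so HOXC was no more concentrated than a typical window.

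HOXA showed 1 central block. Its 4 middle bins of 50 kb, from 27.2 Mb, held 1743, 2063, 3412 and 3308 bp in the first, 3742, 3709, 4383 and 6715 bp in the second, 4692, 5222, 5472 and 5352 bp in the third, and 1310, 2466, 4136 and 5339 bp in the fourth. The third of these, from 27.30 Mb, was the most covered bin of the window by its mean, and its 4 values lay close together. The 16 bins outside the middle had medians of 204, 717, 653 and 780.5 bp. A second, lower stretch ran from 27.50 to 27.65 Mb, where the bin at 27.50 Mb held 2697, 2150, 4283 and 3145 bp. The least covered bin, from 27.00 Mb, held 110, 170, 867 and 0 bp.

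Coverage in HOXB was low up to 49.35 Mb, and highest at 49.40 Mb. The bin from 49.40 Mb, the most covered of the window, held 6377, 4987, 8713 and 8922 bp, and the next held 4022, 4435, 5987 and 5203 bp. Beyond the middle, coverage varied: the bin from 49.70 Mb held 1733, 1704, 714 and 547 bp and that from 49.80 Mb held 3799, 3258, 4919 and 4038 bp. The least covered bin, from 49.10 Mb, held 134, 324, 95 and 147 bp.

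HOXC had several blocks and no single centre. Its most covered bin, from 54.10 Mb, held 12818, 8791, 10694 and 12245 bp and lies just outside the middle. The bin from 54.35 Mb held 7349, 12242, 11629 and 11951 bp, and that from 53.70 Mb held 7800, 7835, 8483 and 9504 bp. Between these blocks the bin from 54.20 Mb held 590, 694, 1315 and 822 bp. The least covered, from 54.40 Mb, held 639, 0, 715 and 530 bp and directly follows the block at 54.35 Mb.

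HOXD had 1 block of 3 bins from 176.55 Mb and lower, scattered coverage around it. The bin from 176.55 Mb held 3786, 3584, 3754 and 3759 bp, the most even values of any bin named here. The next bin held 2971, 1828, 4966 and 4951 bp and the one after 1231, 1608, 2635 and 1191 bp. Just before this block, the bin from 176.50 Mb held 0, 648, 614 and 0 bp. The least covered, from 176.40 Mb, held 122, 0, 0 and 133 bp. Other bins of the window were better covered: that from 176.95 Mb held 1723, 1458, 987 and 610 bp and that from 176.35 Mb held 1243, 855, 1574 and 665 bp. The bin from 176.95 Mb was thus above the last bin of the block in control 1.

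**Figure D3:**
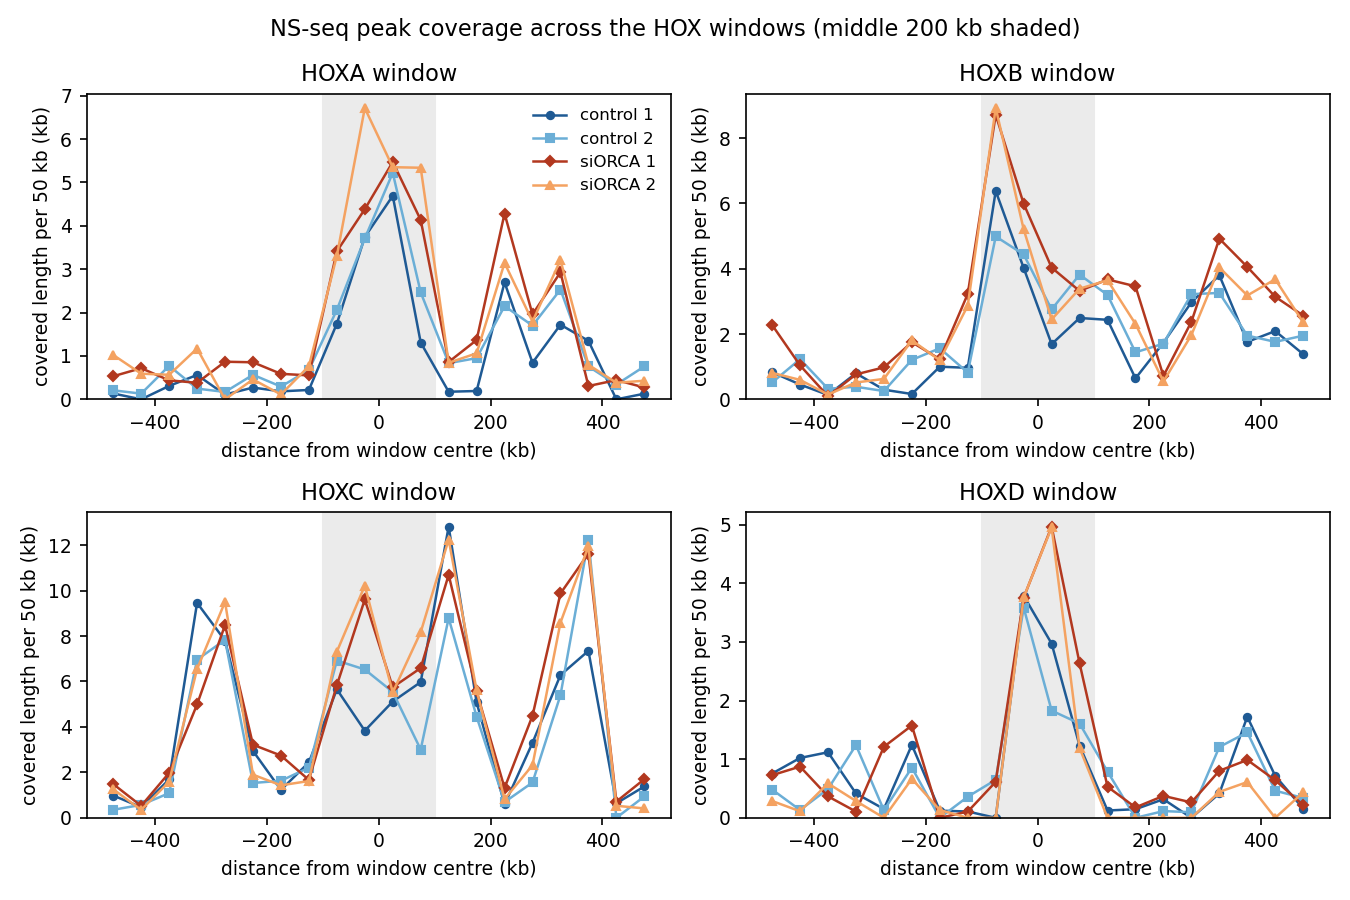
Covered length (kb) in each 50 kb bin across the 4 HOX windows, by distance from the window centre (kb); lines are the 4 samples and the middle 200 kb is shaded. HOXA and HOXD have 1 dominant block in the shaded part, whereas HOXC has blocks on both sides of it as well. HOXB is highest in the shaded part but stays covered after it. Its bin from 49.80 Mb (mean 4003.5 bp) lies above the shaded bins from 49.50 and 49.55 Mb (2730 and 3253 bp).

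The profiles were compared between samples. Over the 80 bins of 50 kb, the Pearson correlation of covered length between pairs of samples ran from 0.876 to 0.967, which takes in the different levels of the 4 windows. Within single windows of 20 bins it went as low as 0.759 in HOXD, and Spearman's rho as low as 0.57 in HOXD and 0.605 in HOXA. Bins of one window are neighbours on a chromosome and the samples share a genome and a peak caller, so this is a description and no test. Of the 80 bins, 67 held a peak in all 4 samples and none was without a peak in every sample. HOXD had 11 of its 20 bins with a peak in all 4 samples, against 17 in HOXA, 20 in HOXB and 19 in HOXC.

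Peaks that touched or overlapped across the 4 lists were merged into regions, and each region was scored by the samples that held it. The HOX windows held 1113 regions, of which 162, or 14.6% (Wilson 95% interval 12.6 to 16.8%, counting error only), were found in all 4 samples. Over the genome 10.7% of 535576 regions were, and in the flanks 15.4%. The HOX share was thus above that of the genome and close to that of the flanks. Regions found in 1 sample made up 53.0% of the HOX regions, 52.1% of the flank regions and 60.1% of those of the genome. Regions in all 4 samples had a median width of 832 bp, against 148 bp for those in 1 sample, and a merged region grows with the number of peaks in it.

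HOXA and HOXB again lay on opposite sides of their flanks. In HOXA 32 of 216 regions (14.8%) were found in all 4 samples, against 9.14% in its flanks, and in HOXB 43 of 317 (13.6%) against 20.4%. HOXC, with 78 of 415 (18.8%), was near its flanks at 19.7%, and HOXD, with 9 of 165 (5.46%), was near its flanks at 4.26%. Of these regions, 18 of the 32 in HOXA, 15 of the 43 in HOXB, 23 of the 78 in HOXC and 7 of the 9 in HOXD lay in the middle 200 kb. In HOXD the other two lay at 176.1 and 176.35 Mb.

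Shared regions with the highest fold enrichment are given with the authors' fold of the highest peak in each list, which ranks peaks within a list. In HOXD the first was chr2:176592707-176593637, with folds of 4.77, 5.61, 16.8 and 6.17. In HOXA it was chr7:27540213-27540382, a narrow region of 170 bp outside the middle, with folds of 10.7, 10.8, 6.65 and 10.5. In HOXB it was chr17:49441376-49442616, in the most covered bin, with folds of 5.77, 4.85, 30.8 and 6.74. The HOXB mean rests largely on siORCA 1.

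By the mean fold over the 4 lists, HOXC held the highest of the named regions, chr12:54392611-54396030, a region of 3.42 kb with folds of 28.2, 9.14, 17.9 and 24.8. It was not the highest within every list: other named regions had 11.8 in control 2 and 31.0 in siORCA 1. Over all HOX peaks, the highest folds of these 2 lists were in HOXB, at 15.1 in control 2 and 34.4 in siORCA 1. Close to it lay chr12:54387907-54388478, with folds of 11.6, 9.42, 21.9 and 10.0, and the widest shared region of the 4 windows, chr12:54357273-54360861, 3.59 kb long. These 3 regions fall in the same bin from 54.35 Mb. The remaining high region of HOXC, chr12:54113934-54115046, had folds of 9.62, 11.8, 31.0 and 10.3 and lies in the bin from 54.10 Mb.

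The widest shared regions elsewhere were shorter. They were 1.59 kb at chr7:27317951-27319537 in HOXA, 1.61 kb at chr17:49583191-49584804 in HOXB and 1.95 kb at chr2:176608072-176610018 in HOXD. The HOXA region owes its width to control 2, where its peaks covered 1587 bp, against 183, 181 and 161 bp in control 1, siORCA 1 and siORCA 2. All of these lie within the middle 200 kb of their windows.

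Stretches with no peak in any list were longest where coverage was low. The longest was 54.5 kb in HOXD, at chr2:176415694-176470227, which ends short of the central block. In HOXA the longest was 43.9 kb, in HOXB 28.1 kb and in HOXC 14.7 kb, and all 4 lay outside the middle 200 kb. A stretch without a peak is one where no list called a peak, and a lower signal there was not detectable from these lists.

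**Figure D4:**
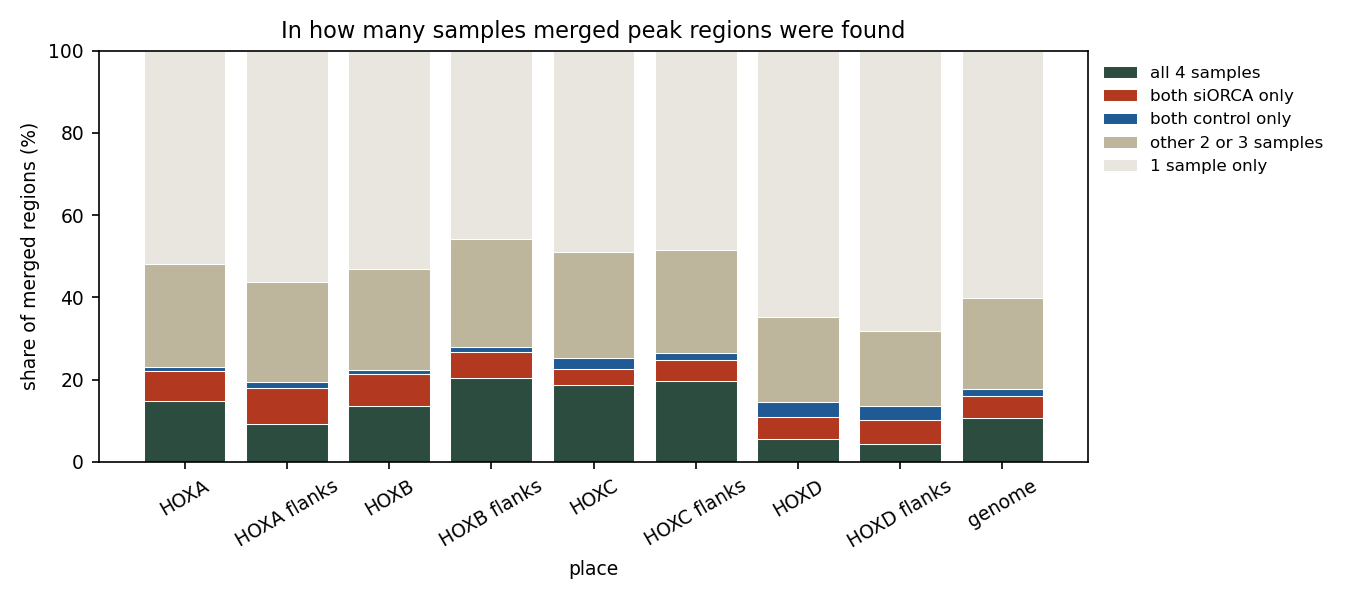
Share (%) of merged regions by the samples that held them, for each HOX window, its flanks and the genome. Regions in all 4 samples made up 14.8% in HOXA against 9.14% in its flanks, and 13.6% in HOXB against 20.4%.

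Between siORCA and control, covered length in the HOX windows was higher in both siORCA samples, but not as a share of each list. Per 50 kb, the control samples had 1996 ± 29.7 bp and the siORCA samples 2572 ± 126 bp (SD, n = 2 each; two-sided exact permutation p = 0.333, the smallest that 2 against 2 allows). The share of the list's covered length was 0.255 ± 0.0209% in control and 0.279 ± 0.0448% in siORCA, with groups that overlapped (SD, n = 2 each; exact permutation p = 0.667). Peak number overlapped too, at 5.97 ± 1.05 and 7.88 ± 2.07 per 50 kb (SD, n = 2 each; exact permutation p = 0.667). The log2 ratio to the flanks differed by -0.02 between siORCA and control (exact permutation p = 0.667), a change smaller than the spread between samples. Its sign turned to 0.01 without siORCA 1. When the lists were cut to equal covered length, the difference in covered length went from 576 to 216 bp per 50 kb and that in peak number from 1.91 to 0.237. The difference in peak number was 0.444 without siORCA 1, 3.37 without siORCA 2 and 1.16 without control 1.

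The windows did not move together. HOXA took 0.0348 and 0.0396% of the covered length in control, against 0.0403 and 0.0579% in siORCA. HOXB took 0.0616 and 0.0608% in control, against 0.0677 and 0.0785% in siORCA. In both, the siORCA samples lay above the control samples (exact permutation p = 0.333, or 0.666 after Benjamini-Hochberg adjustment over 4 windows). Such a separation was seen in 11.3% of 2442 windows of the genome, and the opposite one, with both siORCA samples lower, in 17.2%. HOXC took 0.145 and 0.117% against 0.115 and 0.153%, and HOXD 0.0282 and 0.0236% against 0.0243 and 0.0210%, with groups that overlapped. In both HOXA and HOXB the upper value came from siORCA 2.

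In a limma fit across all 2442 windows of 1 Mb, on log2 of covered length over list length, none of the 4 HOX windows was called. The log2 difference, siORCA minus control, was 0.36 (SE 0.21) for HOXA and 0.24 (SE 0.20) for HOXB, with an adjusted p from limma of 0.936 for both. It was 0.02 (SE 0.23, limma adjusted p = 0.992) for HOXC and -0.19 (SE 0.28, limma adjusted p = 0.940) for HOXD. The median over all windows was -0.09. Over the genome limma called 0.0819% of windows, 2 in all, and 3.56% had an unadjusted p under 0.05, none of them a HOX window. One sample moved each of these: HOXA was 0.10 without siORCA 2 and 0.62 without siORCA 1, HOXB was 0.13 without siORCA 2, and HOXD was -0.07 without control 1, -0.32 without control 2 and -0.11 without siORCA 2. HOXC's direction turned without control 2 (-0.14) and without siORCA 2 (-0.19).

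At 50 kb, 74 of the 80 HOX bins had enough coverage to be tested, and limma called 0 of them; the lowest adjusted p was 0.919. Over 42514 bins of the genome limma called 1, or 0.00235%. At an unadjusted p under 0.05 there were 7 of the 74 HOX bins (9.46%), 5 higher and 2 lower in siORCA, beside 5.1% of all bins. The median log2 difference over the HOX bins was 0.11, and over all bins it was -0.06. Median centring of the lists moved these to 0.25 and 0.09, and a pseudocount 5 times larger moved them to -0.00063 and -0.14, so the sign of the HOX median depends on the setting, while it stayed above that of all bins in both. The pseudocount pulls sparse bins towards a negative difference, and the HOX windows together were more densely covered than the genome. How much of the distance between the medians comes from this was not tested. Both siORCA shares lay above both control shares in 20 of the 74 bins (27.0%) and below in 7 (9.46%), beside 15.4% and 16.8% over the genome. By window, bins above and below numbered 7 and 0 in HOXA, 8 and 2 in HOXB, 4 and 3 in HOXC and 1 and 2 in HOXD. Bins of a window share its list and its neighbours and are not replicates.

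The 3 bins with the smallest p and a higher share in siORCA lay in HOXB and HOXA. At 49.35 Mb in HOXB covered length was 965 and 818 bp in control and 3227 and 2870 bp in siORCA, a log2 difference of share of 1.33 (SE 0.51, limma adjusted p = 0.919). This bin comes directly before the most covered bin of HOXB. At 27.35 Mb in HOXA it was 1310 and 2466 bp in control and 4136 and 5339 bp in siORCA, a log2 difference of 1.04 (SE 0.44, limma adjusted p = 0.941). It is the last bin of the central block. At 49.65 Mb in HOXB it was 642 and 1440 bp in control and 3461 and 2309 bp in siORCA, a log2 difference of 1.12 (SE 0.51, limma adjusted p = 0.951). In these 3 bins the groups did not overlap, which the choice by smallest p favours. Shares separated in this direction in 15.4% of 42514 bins of the genome. No difference passed the threshold. The HOXA bin gave 0.65 without siORCA 2 and 1.68 when weaker peaks were left out of the lists, and the HOXB bin at 49.65 Mb gave 0.74 without control 1 and 0.53 when weaker peaks were left out.

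The 3 bins with the smallest p and a lower share lay in HOXB, HOXC and HOXD, all outside the middle. At 49.70 Mb in HOXB, the bin right after the one at 49.65 Mb, covered length was 1733 and 1704 bp in control and 714 and 547 bp in siORCA, a log2 difference of -1.46 (SE 0.58, limma adjusted p = 0.941). At 53.65 Mb in HOXC it was 9459 and 6958 bp in control and 4991 and 6546 bp in siORCA, with -0.74 (SE 0.36, limma adjusted p = 0.955). At 176.95 Mb in HOXD it was 1723 and 1458 bp in control and 987 and 610 bp in siORCA, with -1.11 (SE 0.57, limma adjusted p = 0.983), and the sign turned to 0.74 when weaker peaks were left out of the lists. Leaving these out moved the HOXB bin to -0.47 and the HOXC bin to -1.33. The HOXC bin was -0.33 without siORCA 1, -0.42 without control 1 and -1.14 without siORCA 2.

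**Figure D5:**
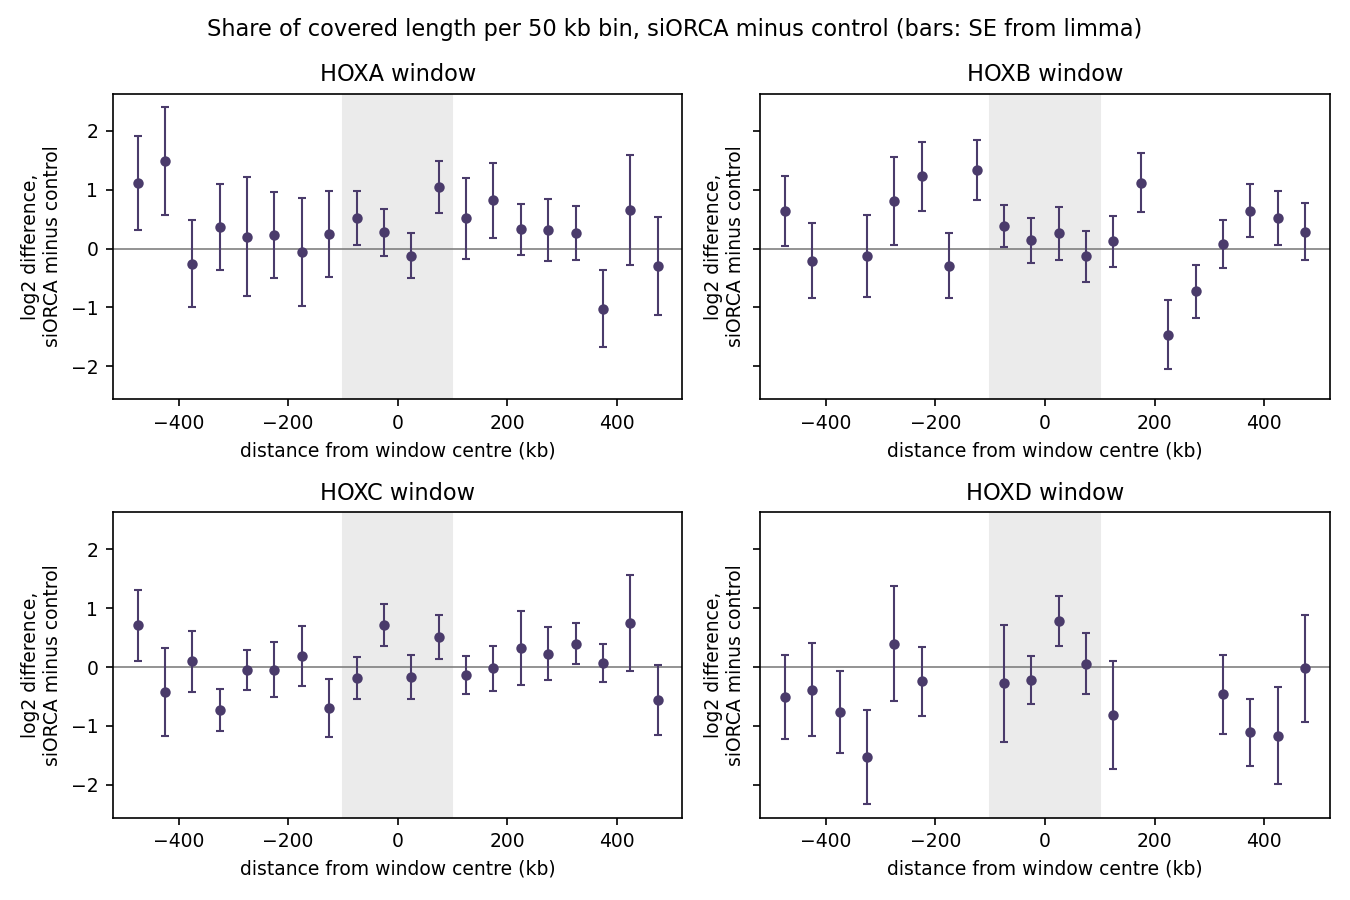
Log2 difference of the share of covered length, siORCA minus control, in each tested 50 kb bin of the HOX windows, by distance from the window centre (kb); bars are standard errors from limma. Most bins cross 0 within about 2 standard errors, and none of the 74 passed the threshold.

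HOXD was the window whose internal distribution differed most between groups. Covered length per kb in its middle 200 kb over the rest was 3.74 and 3.76-fold in control and 5.35 and 11.1-fold in siORCA, a log2 difference of 1.04 (exact permutation p = 0.333). The middle took 0.0137 and 0.0114% of all covered length in control and 0.0139 and 0.0155% in siORCA, and the rest took 0.0146 and 0.0122% against 0.0104 and 0.00555%. So the rest was lower in both siORCA samples and the middle slightly higher. Ratios that separated the groups in this direction were seen in 16.6% of 2379 windows of the genome. The difference was 0.51 without siORCA 2, 1.57 without siORCA 1 and 0.46 when weaker peaks were left out of the lists. In siORCA 2, 8 of the 20 HOXD bins held no peak, against 1 or 2 in the other samples. The lower rest was not particular to this window. HOXD's flanks held 548, 643, 757 and 487 bp per 50 kb in lists of 58.5, 67.1, 86.2 and 64.0 Mb. Relative to list length, these flanks too were lower in both siORCA samples. The median 50 kb bin of the genome held 380, 566, 677 and 327 bp, also lowest in siORCA 2.

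Regions with peaks in siORCA 1 and siORCA 2 and in neither control, called gained, numbered 66 of 1113 (5.93%), beside 5.44% over the genome and 6.49% in the flanks. Regions with peaks in control 1 and control 2 and in neither siORCA sample, called lost, numbered 22 (1.98%), beside 1.67% over the genome and 1.65% in the flanks. Both shares were near the background. By window, gained and lost numbered 16 and 2 of 216 regions in HOXA and 25 and 3 of 317 in HOXB. They numbered 16 and 11 of 415 in HOXC and 9 and 6 of 165 in HOXD. Gained shares were 7.41, 7.89, 3.86 and 5.5% in HOXA, HOXB, HOXC and HOXD, against 8.92, 6.40, 5.17 and 5.87% in their flanks. Lost shares were 0.926, 0.946, 2.65 and 3.64%, against 1.25, 1.19, 1.52 and 3.57%. The median width was 299.5 bp for gained and 342 bp for lost regions, well short of the 832 bp of regions in all 4 samples. With 1 sample left out these counts grew, because fewer samples set the pattern: gained to between 129 (without control 2) and 353 (without siORCA 2), lost to between 38 (without siORCA 1) and 188 (without control 1). The genome's shares grew likewise: without siORCA 2, 33.1% of HOX regions and 35.0% of all regions were gained, and without control 1, 17.8% and 21.3% were lost.

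The widest gained regions of HOXA, HOXC and HOXD lay in the middle 200 kb of their windows, and that of HOXB just after it. They were chr12:53998679-54000106 in HOXC, where peaks covered 992 and 1428 bp in siORCA 1 and siORCA 2, chr17:49615483-49616644 in HOXB with 655 and 622 bp, chr7:27297089-27298083 in HOXA with 428 and 995 bp, and chr2:176629241-176629875 in HOXD with 635 and 122 bp. The widest lost regions covered 1021 and 133 bp in control 1 and control 2 at chr2:176173212-176174232 in HOXD and 866 and 295 bp at chr12:54016591-54017456 in HOXC. In HOXB the widest lost region covered 354 and 301 bp at chr17:49589614-49590006, and in HOXA 130 and 165 bp at chr7:27771388-27771611.

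Overlap between single lists was also counted, with at least 1 bp shared. Of the HOX peaks of siORCA 2, 70.2% overlapped a peak of siORCA 1, and of those of control 1, 52.2% overlapped a peak of control 2. Of the HOX peaks of control 1, 64.6% overlapped a peak of siORCA 1 and 65.1% one of siORCA 2. Longer lists give more overlap, so the share of control 2 peaks found in control 1, 41.9%, and of siORCA 1 peaks found in siORCA 2, 50.6%, stand beside these. The flanks gave nearly the same: 70.2% of siORCA 2 peaks in siORCA 1, and 51.1, 64.5 and 65.8% of control 1 peaks in control 2, siORCA 1 and siORCA 2. Over the genome these shares were 66.6, 44.9, 57.2 and 55.3%. HOXD stood lowest: 8.42 to 22.0% of its peaks had a partner in all 3 other lists, against 22.5 to 44.3% in HOXA, 19.1 to 37.1% in HOXB and 26.6 to 41.7% in HOXC. By a partner in any other list, HOXD was lowest in control 1, control 2 and siORCA 1 (66.1, 51.5 and 46.3%). It was the highest window in siORCA 2 (90.2%).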

How the data were processed

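The 4 nascent-strand samples each have 1 deposited list of broad peaks. The submitters' processing notes name BWA, SAMtools, MACS2 and T2T-CHM13. Versions, settings and the caller's background are not given in the sources used here. In the deposited lists a peak has a position, a score (not analysed here), a fold enrichment (a linear ratio over background), and −log10 values of p and q. Peaks were listed per sample, not on pooled samples.

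From the positions, peaks and covered length were counted per window, per 50 kb bin and per flank, assigning each peak by its start. Windows and bins were compared with limma 3.58.1 in R 4.3.3 (lmFit, eBayes with trend, Benjamini-Hochberg, threshold 0.05) on log2 of covered length plus a pseudocount (1000 bp for 1 Mb, 200 bp for 50 kb) per Mb of list, for windows with a mean of at least 5000 bp and bins with at least 250 bp. The pseudocount was the same for lists of different length, and the siORCA lists were longer on average. Differences of sparse windows and bins were therefore pulled towards a negative value, a lower share in siORCA. The fit was tested on simulated data. The 1 Mb grid was shifted on chromosomes 2, 7 and 12 so that each HOX window is 1 grid window. Single values were compared by exact permutation with scipy 1.17.1 under Python 3.11.15 (numpy 2.4.6, pandas 2.3.3). Lists were merged over at least 1 bp of overlap or contact.

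Named in each window were the 3 regions of highest mean fold and the widest region found in all 4 lists, the most and least covered bin, the widest gained and lost region and the longest stretch without a peak, and over all bins the 3 each way with the smallest p; the regions ranked 2 and 3 by fold of HOXA, HOXB and HOXD and the positions of 3 peak-free stretches are left out of the text, and further bins were named after their values were seen. The windows and measures were chosen with earlier results of these data known. Whether replicate numbers pair the samples is not stated in the labels, and the main fits did not pair them.

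Alternatives were lists restricted to a −log10 q of 3 or more (called the stricter list), lists cut to equal covered length, a replicate block, other pseudocounts, filters, centring, flanks and merging, and each sample left out.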

Additional observations from a re-analysis of the deposited data

How the results depend on the processing

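Of 305 alternative values for 34 results, 262 kept their direction and side of the threshold or, for counts and shares, their size, 36 moved and 7 reversed. The windows' ratios to their flanks and of middle to rest, averaged over the 4 samples, kept their direction under every alternative run. No HOX window or bin was called by limma under any setting that kept all 4 samples. Under these settings the HOX bins at an unadjusted p from limma under 0.05 numbered 5 to 9. They were 5 of 74 with a replicate block, beside 1641 of 42514 bins of the genome. With a crossed block, described below, they were 9 of 74, beside 2882 of 42514. With the larger pseudocount they were 6 of 74, beside 3310 of 42514, nearly the same share. Median centring gave 6 of 74, beside 2092 of 42514, and no filter 7 of 80, beside 3177 of 61086. The stricter list gave 5 of 54, beside 1488 of 28737, and matched list length 8 of 69, beside 2181 of 37611. The log2 difference in the ratio to the flanks, siORCA minus control, turned to 0.0234 with the stricter list and ranged from -0.0473 to 0.00627 with a sample left out. The stricter list also turned the window difference of HOXC to -0.10 and of HOXD to 0.22, and the HOXD bin at 176.95 Mb to 0.74. HOXC ranged from -0.19 (without siORCA 2) to 0.23 (without siORCA 1) and was -0.14 without control 2.

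Over the genome the 2 windows called became 0 with the larger pseudocount or the stricter list, 1 with median centring or matched list length, and 0 to 59 with a sample left out (59 without siORCA 1). The 1 bin called became 0 with median centring or matched list length, and 2 to 24 with a sample left out (24 without control 1). With the replicate number as a block, limma called 0 windows and 0 bins. Same-numbered samples deviated in opposite directions (r = -0.46 over windows), and a crossed block, added after seeing the data, called 4 windows and 4 bins, none in HOX.

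The share of HOX regions in all samples became 10.7% with the stricter list, beside 8.58% over the genome. It became 3.06% when most of the region had to be covered, close to the genome's 2.77%. It was 22.0% with gaps of 1 kb merged, where the genome's share was lower. With a sample left out it was 16.6 to 23.7%, beside 12.7 to 18.1% over the genome. Gained regions became 80 with the stricter list (12.05% of HOX regions and 9.16% over the genome). They became 41 with matched list length (4.70 and 4.32%) and 39 with gaps merged (5.39 and 5.36%). With a sample left out they ran from 129 (13.3 and 11.3%) to 353 (33.1 and 35.0%). Lost regions became 7 with the stricter list (1.05 and 0.684%) and 12 with gaps merged (1.66 and 2.05%). With a sample left out these ran from 38 (4.5 and 4.2%) to 188 (17.8 and 21.3%). The cause of these moves was not tested, beyond the fewer samples that set a pattern. Depth is unknown, so no limit of detection can be given.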

Other observations

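Strength of the HOX peaks within their own lists was set beside that of all peaks. By the authors' fold enrichment, 28.2, 27.6, 30.8 and 25.5% of the HOX peaks of control 1, control 2, siORCA 1 and siORCA 2 fell in the top 25% of their list. The flanks gave 30.1, 27.1, 28.2 and 27.0%, so HOX peaks were no stronger as a group than their neighbours by this count. HOXC was highest in siORCA 1, at 36.2%. HOXD gave 16.1% and 22.1% in control and 26.3% and 24.4% in siORCA, and its flanks 14.1, 16.8, 25.3 and 17.7%. HOXB was below its flanks in 4 of 4 samples, at 31.4, 27.6, 26.3 and 20% against 37.5, 31.3, 31.4 and 29.7%.

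Regions were also counted separately in the middle and outer stretches of the HOX windows. Of 376 regions in the middle 200 kb of the windows, 63 (16.8%) were found in all 4 samples, 33 (8.78%) were gained and 11 (2.93%) lost. Of 737 regions in the remaining 800 kb, 99 (13.4%) were found in all 4 samples, 33 (4.48%) were gained and 11 (1.49%) lost. Regions found in 1 sample made up 44.7% of the middle and 57.3% of the rest. Over the genome 10.7% were found in all 4 samples, 5.44% were gained, 1.67% were lost and 60.1% were in 1 sample. The windows were not alike: in HOXB 6 of 99 middle regions (6.06%) were gained, against 25 of 317 (7.89%) in the whole window, and in HOXC 23 of 126 middle regions were found in all 4 samples, against 78 of 415 in the whole window. These are counts with no test, and regions of a window are not independent.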
